A study of Bos taurus with 21 samples.

Results

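The breed difference that all developmental stages shared was measured between muscle of Blonde d'Aquitaine (BA) and Charolais (CH) bovine foetuses. All 10 BA and all 11 CH arrays were used, 21 of the 21 arrays of the series. At each of the 4 stages, 110, 180, 210 and 260 days post conception (dpc), the mean of the CH foetuses was subtracted from the mean of the BA foetuses, and the 4 differences were averaged with equal weight. A positive difference is therefore a higher level in BA. Levels are log2 intensities less the 75th percentile of their array, so that a difference of 1 is a doubling of intensity. The arrays hold 43653 probes, of which 26628 were named and fell in 12538 genes. The 30995 probes that were well above background on at least 10 arrays, whatever the breed, were tested, and 20883 of them were named and fell in 10223 genes. Of these genes, 6208 had more than 1 tested probe, so that the difference of a gene could be read from several probes, and 4015 had 1.

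The study asked how muscle of the BA, a heavily muscled French beef breed in which a myostatin mutation is known, differs in gene expression from muscle of the CH, also a beef breed, while it forms. The BA groups held 3 foetuses at 110, 2 at 180, 3 at 210 and 2 at 260 dpc, and the CH groups held 2, 3, 3 and 3 at the same stages. The BA foetuses were 3 males and 7 females from 2 sires, and the CH foetuses were 5 males and 6 females from 2 sires. At 110, 180, 210 and 260 dpc the males were 2, 0, 1 and 0 in BA and 0, 1, 2 and 2 in CH. Sex was thus not balanced between the breeds at any stage. BA foetuses at 180 and 260 dpc came from 1 sire each time, as did CH foetuses at 210 dpc. Foetuses of a sire are relatives, so p-values measured the spread between these foetuses, and breed cannot be told apart from the 4 sires used. Whether each BA foetus carried the mutation had not been determined. The labels give no treatment for any group. The labels name the muscle Longissimus thoracis, whereas the paper's text names *m.* *Semitendinosus*.

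Skeletal muscle forms from myoblasts that divide, fuse into fibres and then take on slow or fast contractile proteins. Myostatin is a secreted factor of the transforming growth factor β family that restrains the number and size of fibres. Cattle that lack its activity are double-muscled. An array probe reads only a short stretch of a transcript, so its intensity can differ between breeds with the amount of the transcript, with the form that is spliced or ended there, or with the sequence under the probe. Probes of 1 gene that differ alike and probes that do not were therefore kept apart below.

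The tissue was checked against its markers. The mean level of 12 skeletal muscle fibre genes was 2.90 to 5.86 in BA and 3.23 to 5.96 in CH foetuses, above the 75th percentile of probes on every array. The number of probes well above background was 29608 to 34501 in BA (median 30890.5) and 29017 to 34223 in CH (median 30544). The lowest median correlation of any array with the others was 0.945. Of the 6 slides, read over 3 scan days, 1 held 2 CH arrays and no BA array, and the other 5 held both breeds.

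In limma with Benjamini-Hochberg adjustment, 52 of the 30995 probes (0.168%) passed an adjusted p of 0.05 for the shared difference. Of these, 25 were higher and 27 lower in BA. Over all tested probes the median difference was 0.00 with an SD of 0.22, and 164 probes differed by more than 1 in either direction. The 52 probes differed by 0.28 to 3.19, with a median size of 0.74. The value of 3.19 belongs to a probe that was mostly not well above background in CH. The difference of the 52 probes had the same sign at all 4 stages in 46, and in each of the 5 slides with both breeds in 48. Probes called for a large mean difference beside its spread tend to keep 1 sign. These counts are therefore not separate evidence, and the shares over all tested probes are not given. In 47 of the 52 probes the ranges of the breeds overlapped. All BA arrays lay on one side of all CH arrays in 5 of the 30995 tested probes (0.0161%), and these 5 were called. They were both *MSTN* probes, 1 probe of *RNF121* and 2 probes without a gene name. Of the 52, 30 were named and fell in 27 genes and 22 were not named.

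Among the 27 genes, 2 had more than 1 called probe, *MSTN* and *LPAR6*, and in both all tested probes were called in the same direction. A further 16 had 1 called and at least 1 uncalled probe, and 9 had a single tested probe. In 14 of the 18 genes with several probes and a called one, all tested probes had the same sign, and in 4 they did not. Over all 6208 genes with several probes, the probes had the same sign in 3665 (59.0%).

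*MSTN*, the gene of myostatin, was higher in BA by about 4 times on both of its probes. The level of probe A_73_120254 was lowest at −0.13, had a median of 0.59 and was highest at 1.22 in BA, and was −2.79, −1.47 and −0.95 in CH. The level of probe A_73_P036291 was 0.43, 1.53 and 2.08 in BA and −1.55, −0.64 and 0.03 in CH. No BA foetus overlapped a CH foetus on either probe. The shared difference was 2.01 ± 0.21 (SE, adjusted p = 0.000325, limma) on the former and 2.00 ± 0.22 (adjusted p = 0.000587, limma) on the latter. The mean of both probes differed by 2.00, or 4.01-fold, and the probes differed from each other by less than their error (diffSplice adjusted p = 1.00).

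The *MSTN* difference stood at every stage and in every batch in which it could be measured. On the mean of both probes it was 1.79, 1.78, 2.28 and 2.16 at 110, 180, 210 and 260 dpc. Within the 5 slides that held both breeds it lay between 1.05 and 2.54, after each stage mean was removed. By exchange of breeds within stages in all 20000 ways, the exact two-sided permutation p of either probe was 5e-05, the smallest that this design allows. As mean deviations from the stage means, the foetuses of the 2 BA sires stood at 0.87 and 1.14 and those of the 2 CH sires at −1.17 and −0.73.

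Other genes of the myostatin and activin pathway did not move with *MSTN* as a group. Of 25 genes of the list, 20 were on the array and 15 were tested, and all counts here include *MSTN* itself. On gene means 6 were higher and 9 lower in BA, with a median difference of −0.01 beside −0.00 over all 10223 genes. At an unadjusted p of 0.05, 1 was higher and 1 lower, where 6.3% of all genes were higher and 5.53% lower. The gene that was higher was *MSTN*, and the one that was lower was *FST*.

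*FST*, the gene of follistatin, a secreted protein that binds and blocks activins and myostatin, was lower in BA on its single named probe. Its level was 1.04, 1.98 and 2.49 (lowest, median, highest) in BA and 1.66, 2.31 and 2.82 in CH. The breeds overlapped over most of their range. *FST* had a shared difference of −0.51 ± 0.09 (SE, adjusted p = 0.044, limma), and at the stages it was −0.96, −0.34, −0.04 and −0.70. The adjusted p was above 0.05 in 23 of 36 alternative settings, and in 16 of the 21 in which 1 array was left out.

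*LPAR6*, a receptor for lysophosphatidic acid, was lower in BA on all 3 of its probes. On the mean of the 3 probes its level was −2.39, −1.45 and −1.03 (lowest, median, highest) in BA and −1.71, −0.61 and −0.38 in CH. The medians stood apart and the ends of the ranges overlapped. The shared difference was −0.63 ± 0.10 for probe A_73_P225857 (adjusted p = 0.0187, limma), −0.62 ± 0.11 for A_73_117298 (adjusted p = 0.03, limma) and −0.60 ± 0.11 for A_73_P250056 (adjusted p = 0.0389, limma). The gene mean was 1.53-fold lower, with stage differences of −0.48, −0.58, −0.77 and −0.63. It kept its call whichever array was left out. The call was lost in the authors' value table, in females alone, or with slide or scan day as a block. Over all alternatives the difference stayed between −0.66 and −0.47.

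**Figure D1:**
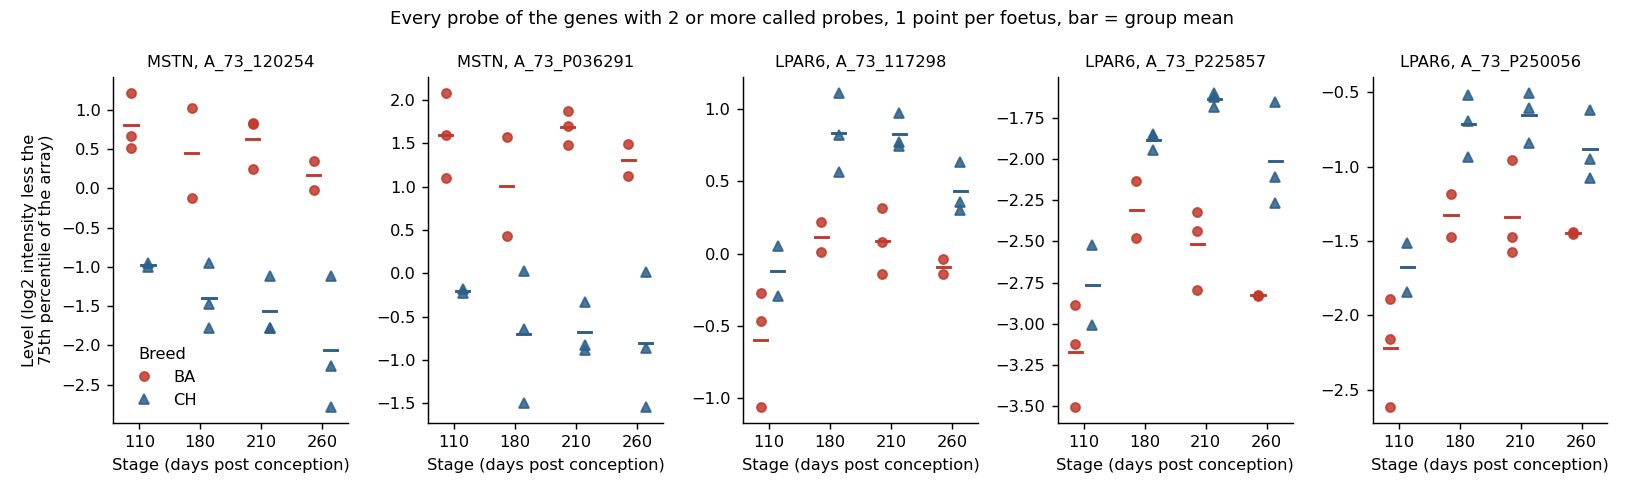
Level of each probe of *MSTN* (2 panels) and *LPAR6* (3 panels) on the y axis, as log2 intensity less the array's 75th percentile, with 1 point for each of the 21 foetuses, by stage in dpc on the x axis and by breed, and a bar for each group mean. The y axes differ between panels. All BA points lie above all CH points on both *MSTN* probes, while the BA means of *LPAR6* lie below the CH means at each stage and single points overlap.

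Averaged over its probes, a gene can differ although no single probe is called. Of the 6208 genes with more than 1 tested probe, 17 (0.274%) were called on the mean of their probes, 10 higher and 7 lower in BA. All probes had the same sign in 15 of these, and the 2 exceptions were *CS* and *MCM3*. Apart from *MSTN*, the breeds did not overlap in *RNF121* only. The split of 10 higher and 7 lower depended on the scaling. With each array centred on its median, 18 genes were called and 7 of them were higher, and with normexp background correction 18 were called and 7 were higher.

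The count also rested on single foetuses. Without CH replicate 1 at 180 dpc it was 7. It moved with foetuses at 110 dpc as well. Without CH replicate 1 at that stage 3 genes were called, *MSTN*, *LPAR6* and *ACBD6*, and without BA replicate 1 at that stage 59 were. With slide as a block 3 were called, *MSTN*, *PRSS23* and *MMP19*.

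*MMP19*, a matrix metalloproteinase, was higher on all 3 probes, by 1.04, 0.94 and 0.91. On their mean its level was −2.75, −2.43 and −1.68 in BA and −3.83, −3.23 and −2.40 in CH. Only the ends of these ranges overlapped. The probe that differed by 0.91 was well above background on all 10 BA and 7 of 11 CH arrays. *MMP19* had a shared difference of 0.96 ± 0.15 (SE), or 1.95-fold (adjusted p = 0.0141, limma), with 0.99, 1.26, 0.80 and 0.81 at the 4 stages. It was called in 33 of 35 alternatives, and was not called without CH replicate 1 at 110 dpc or in the authors' value table. After normexp background correction it differed by 0.51.

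*PRSS23*, a serine protease, was higher on both probes, by 0.80 and 0.59. Its mean level was −2.32, −0.74 and 0.22 in BA and −2.05, −1.62 and −0.76 in CH, so that the lowest foetus of all was a BA foetus. At 110 dpc the difference was −0.03, and at the 3 later stages it was 0.94, 0.95 and 0.94. *PRSS23* had a shared difference of 0.70 ± 0.12 (SE, adjusted p = 0.0239, limma), which was called in 28 of 35 alternatives.

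*RASEF*, which encodes a GTPase of the Rab type, had the largest shared difference after *MSTN* among the genes called on their mean and higher in BA, 1.10 ± 0.18 (SE, adjusted p = 0.0174, limma). Its level was −4.95, −2.70 and −1.36 in BA and −5.03, −3.83 and −3.03 in CH, and the difference was 1.78, 1.27, 0.83 and 0.52 at the 4 stages. The breeds overlapped at the low end. Of its 2 probes, A_73_110734 was well above background on 9 of 10 BA and 6 of 11 CH arrays. The *RASEF* difference was 0.61 after normexp background correction, and the call was lost in females alone, with slide as a block and without CH replicate 1 at 110 dpc. *HOOK3*, which links cargo to microtubule motors, differed by 0.40 ± 0.08 and was called in 20 of 36 alternatives.

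*RNF121*, a ubiquitin ligase, was higher by 0.46 on the probe that was called and by 0.26 on the other. Its mean level was −1.40, −1.28 and −1.10 in BA and −1.88, −1.61 and −1.44 in CH. No BA foetus overlapped a CH foetus. The shared difference was 0.36 ± 0.06 (SE, adjusted p = 0.0174, limma), smaller than that of *MSTN* but in a gene that varied little within a breed. The mean of *RNF121* was called in 31 of 36 alternatives. Its call was lost in the authors' value table, in females alone, with slide or scan day as a block, and without CH replicate 1 at 110 dpc. *MAGI3*, a scaffold protein of cell junctions, was higher on each of its 6 tested probes, by 0.19 to 0.69, and 1 of these was called. Its mean was called in 24 of 36 alternatives. *RPAP2*, a phosphatase of RNA polymerase II, differed by 0.31 ± 0.05 and was called in 26 of 35.

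The 7 genes lower in BA on their mean had differences of −1.08 to −0.36. They were *ACBD6*, *LPAR6*, *BET1*, *GLRB*, *VWF*, *GFPT2* and *MCM3*. *ACBD6*, which binds acyl-CoA, was lower on both probes, with differences of −0.43 and −0.29. Its mean level was 0.19, 0.52 and 1.06 in BA and 0.66, 0.86 and 1.49 in CH. The ranges overlapped in their middle. For *ACBD6* the shared difference was −0.36 ± 0.06 (SE, adjusted p = 0.0141, limma), with −0.43, −0.48, −0.22 and −0.33 at the stages, and it kept its call whichever array was left out. The call was lost in the authors' value table, in females alone and with slide as a block.

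*BET1*, a protein of vesicle fusion between the endoplasmic reticulum and the Golgi, was lower on both probes, and their mean had a difference of −0.46 ± 0.08 (SE, adjusted p = 0.0195, limma). The breed difference of its called probe hardly varied over development, with −0.54, −0.53, −0.53 and −0.54 at the 4 stages. That probe lost its call in 20 of 36 alternatives, and the mean of *BET1* was called in 30 of 36. *GFPT2*, which starts the synthesis of hexosamines, had differences of −0.53 and −0.40 on its 2 tested probes, neither of which was called alone. Their mean had a difference of −0.46 ± 0.09 (SE, adjusted p = 0.0294, limma), which was called in 24 of 36 alternatives.

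*VWF*, the von Willebrand factor that marks endothelium, was lower on its 3 tested probes, with differences of −0.38, −0.37 and −0.34. Its mean level was −1.56, −1.12 and −0.82 in BA and −1.30, −0.74 and −0.22 in CH, which overlapped. The shared difference was −0.36 ± 0.07 (SE, adjusted p = 0.025, limma), and over the stages it was −0.12, −0.28, −0.51 and −0.54. It was called in 24 of 36 alternatives. Over the 20 endothelial marker genes tested, 12 were lower and 8 higher with a median of −0.05. At an unadjusted p of 0.05, 3 were lower and none higher, where 5.53% of all genes were lower. In RNA of a whole tissue, fewer cells of a type and less RNA per cell cannot be told apart.

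*GLRB*, the β subunit of the glycine receptor, had the largest difference of the genes lower in BA on their mean, −1.08 ± 0.20 (SE, adjusted p = 0.025, limma). Its 4 probes had the same sign and unequal sizes, −1.89, −1.72, −0.43 and −0.27. The called probe, A_73_113708, had a level of −7.68, −7.11 and −2.74 in BA and −7.07, −4.14 and −2.91 in CH. It was well above background on 3 of 10 BA and 8 of 11 CH arrays, so most of its BA values were not well above background. After normexp background correction the gene mean differed by −0.38 and was not called, as in 10 of 34 alternatives in all.

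In some genes the probes disagreed. Of the 6208 genes with several tested probes, diffSplice of limma called 3 (0.0483%) as having probes with unequal breed differences. They were *AGTR1*, *CS* and *POLK*. At an unadjusted p of 0.05 there were 288. Set against the mean of the other probes of its gene on the same array, a comparison added after the data had been seen, 5 of 16868 probes were called, 2 of *CS*, 1 of *SMARCC2* and 2 of *ARHGEF12*.

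*CS*, the citrate synthase of the mitochondrial citrate cycle, was higher on its mean, and this rested mainly on 1 probe. Probe A_73_P107236 had a level of 0.23, 0.73 and 1.94 in BA and −0.24, 0.02 and 0.94 in CH, and differed by 0.84 ± 0.09 (SE, adjusted p = 0.000587, limma). The breeds overlapped over all stages and did not overlap at any 1 stage. Probe A_73_P101601 differed by 0.36 ± 0.11 and probe A_73_109183 by −0.11 ± 0.06, and neither was called. The last of these had a level of 3.17, 3.55 and 4.58 in BA and 3.35, 3.65 and 4.80 in CH. So A_73_P107236 and A_73_P101601 were both higher in BA at every stage, the latter by 0.06, 0.39, 0.31 and 0.67. Probe A_73_109183 was lower at every stage, by −0.15, −0.15, −0.07 and −0.06, without passing the test. The probes differed with an adjusted p of 6.23e-05 in diffSplice. With 1 array left out in turn, diffSplice called *CS* each time, and the mean of *CS* was called in 6 of 21.

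*AGTR1*, the receptor for angiotensin II, had the lowest p for unequal probes, and its mean was not called. Its 6 probes differed by −0.40 to 0.24, 4 above 0 and 2 below, and their mean by 0.01 (diffSplice adjusted p = 1.87e-06). None of the 6 was called. The 2 probes that were lower, A_73_108953 and A_73_P104191, differed by −0.75 and −0.81 at 110 dpc and by −0.14 and −0.04 at 260 dpc. The other 4 were higher by 0.57 to 0.83 at 110 dpc. *POLK*, a DNA polymerase that copies past damaged bases, had 5 probes from −0.35 to 0.46 (diffSplice adjusted p = 0.0456), and none was called. With 1 array left out in turn, diffSplice did not call *POLK* in 14 of 21, nor did it with slide, scan day or replicate number as a block.

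*SMARCC2*, a subunit of the SWI/SNF chromatin remodelling complex, had 1 called probe of 4. The level of A_73_119606 was −3.04, −2.72 and −2.09 in BA and −3.79, −3.54 and −2.99 in CH, and it differed by 0.85 ± 0.10 (SE, adjusted p = 0.000797, limma). The other 3 probes differed by 0.33, 0.09 and −0.11, and the gene was not called on its mean. *MCM3*, a subunit of the replicative helicase, had probes at −0.87, −0.33 and 0.00, of which the first was called. The mean of *MCM3* was not called in 23 of 34 alternatives. *FBXL5*, an F-box protein that senses iron, had 1 probe at 0.44 that was called and 1 at 0.02. *ARHGEF12*, an exchange factor for small GTPases, had 1 probe at −0.26 and 1 at 0.19, and neither was called. Splicing, transcript ends and sequence differences under the probes were not tested.

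The other 4 genes with 1 called and further uncalled probes were not called on their mean. *SUMO3*, a small protein that is attached to other proteins, was lower on all 4 probes, from −0.28 on the called one to −0.17. *TMEM97*, the sigma-2 receptor, had differences of −0.55, −0.51 and −0.23, of which the first was called, with −0.52, −0.61, −0.53 and −0.56 at the 4 stages. *EBF2*, a transcription factor, had 1 called probe at −0.30 and others at −0.35 and 0.13. *MYEF2*, a repressor of myelin genes, had 1 called probe at 0.31, with −0.07 at 210 dpc, and another at 0.18. These calls depended on the setting. The called probe lost its call in 28 of 36 alternatives for *SUMO3*, in 24 of 36 for *TMEM97* and for *EBF2*, and in 10 of 35 for *MYEF2*.

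**Figure D2:**
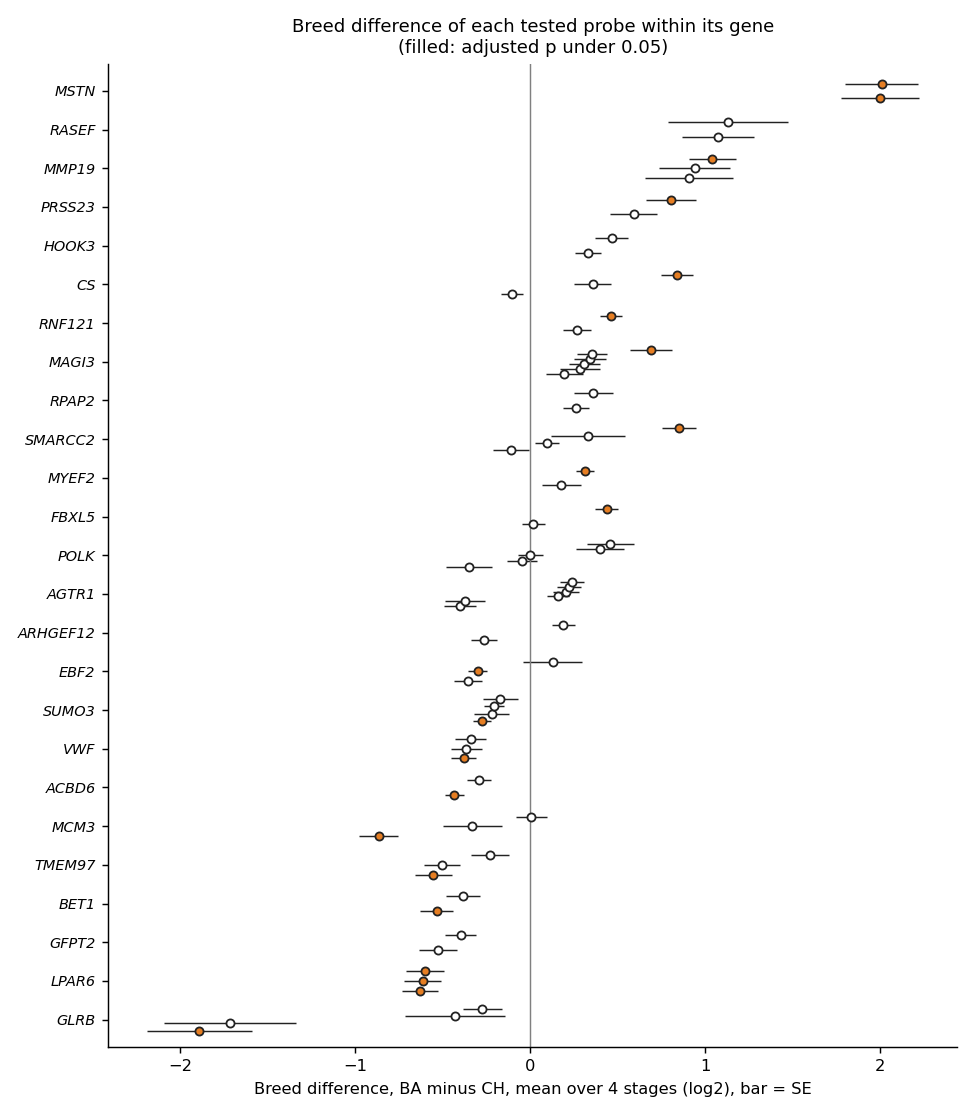
Shared breed difference (log2, BA minus CH, x axis) of each tested probe with its SE, with 1 row for each of 25 genes with several tested probes, filled where the probe was called. The probes of *MSTN*, *LPAR6*, *MMP19* and *VWF* lie close together, while those of *CS* spread from −0.11 to 0.84 and those of *AGTR1* lie on both sides of 0.

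For 9 genes the single tested probe with that name was called, so the agreement of named probes could not be examined. Whether called probes without a gene name read any of these genes was not tested. They were *PMEL*, *TMEM130*, *KRT24*, *ASMT*, *LOC100196897*, *FAM167B*, *APOC4*, *FST* and *SPTLC1*, all lower in BA.

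*PMEL*, a structural protein of pigment granules known for its part in coat colour of cattle, had the lowest p of all probes. Its level was −4.58, −4.22 and −1.72 in BA and −3.11, −2.01 and −1.06 in CH. Ranges overlapped over all stages, yet at each of the 4 stages every BA foetus lay below every CH foetus. For *PMEL* the shared difference was −1.95 ± 0.15 (SE, adjusted p = 1.53e-05, limma), or 3.87-fold lower, with −1.42, −2.74, −2.13 and −1.52 at the stages. It was called under all 35 alternatives, with a difference of −1.09 after normexp background correction.

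*TMEM130*, a membrane protein, had a difference of −1.49 ± 0.17 (SE, adjusted p = 0.000587, limma). Its level was −7.04, −2.16 and −0.38 in BA and −4.90, −1.18 and 0.83 in CH, and it was not well above background in 2 BA foetuses. At each stage all BA foetuses lay below all CH foetuses, and the difference was −1.10, −0.82, −1.34 and −2.72. It was called under all 33 alternatives, with a difference of −0.84 after normexp background correction.

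The others were smaller, and their calls depended on the setting. The call was lost in 25 of 36 alternatives for *SPTLC1*, 20 of 35 for *APOC4* and 17 of 35 for *FAM167B*. It was lost in 16 of 36 for *LOC100196897*, 5 of 36 for *ASMT* and 2 of 36 for *KRT24*. *KRT24*, a keratin, differed by −0.84 and mainly at the earlier stages, with −1.16, −1.61, −0.39 and −0.21. *ASMT*, the last enzyme of melatonin synthesis, differed by −0.82, and its second probe was not tested because it was well above background on 9 arrays. *LOC100196897* and *FAM167B* differed by −0.91 and −0.78. *SPTLC1*, a subunit of the first enzyme of sphingolipid synthesis, differed by −0.52. *APOC4*, an apolipoprotein, differed by −2.66 at 110 dpc, by −0.23 and −0.13 at 180 and 210 dpc and by 0.13 at 260 dpc, so its shared difference of −0.72 stood for 1 stage.

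Of the 27 genes with a called probe, 4 lay close together. In the annotation of assembly ARS-UCD2.0, *CS*, *SMARCC2*, *PMEL* and *MMP19* fell within a run of 22 protein-coding genes, with 5 genes between *CS* and *SMARCC2*, 11 between *SMARCC2* and *PMEL* and 2 between *PMEL* and *MMP19*. This group was noticed after the values had been seen. The next closest pair of called genes, *SUMO3* and *ASMT*, had 93 genes between them. *CS*, *SMARCC2* and *MMP19* had their called probes higher in BA and *PMEL* lower.

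The genes around these were described in order. The run with 10 genes on either side held 42 genes, of which 32 were tested. The run had been drawn around *CS*, *SMARCC2*, *PMEL* and *MMP19* because of their called probes. A count over the run therefore includes these 4 by choice. On gene means 8 of the 32 passed an unadjusted p of 0.05, where 6.3% of all genes were higher and 5.53% lower. They were *CS*, *SMARCC2*, *PMEL*, *MMP19* and 4 genes without a called probe, namely *DGKA* (−0.42), a kinase of diacylglycerol, *RAB5B* (0.23), a GTPase of endosomes, *SUOX* (−0.21), the sulfite oxidase, and *ESYT1* (−0.20), a protein of membrane contacts. Between them lay genes with differences near 0, such as *CDK2* (0.02), a kinase of the cell cycle, and *PA2G4* (0.01), a growth-linked protein. The differences therefore had both signs and were not spread evenly along the run. Whether the breeds' foetuses carried different haplotypes there was not tested.

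**Figure D3:**
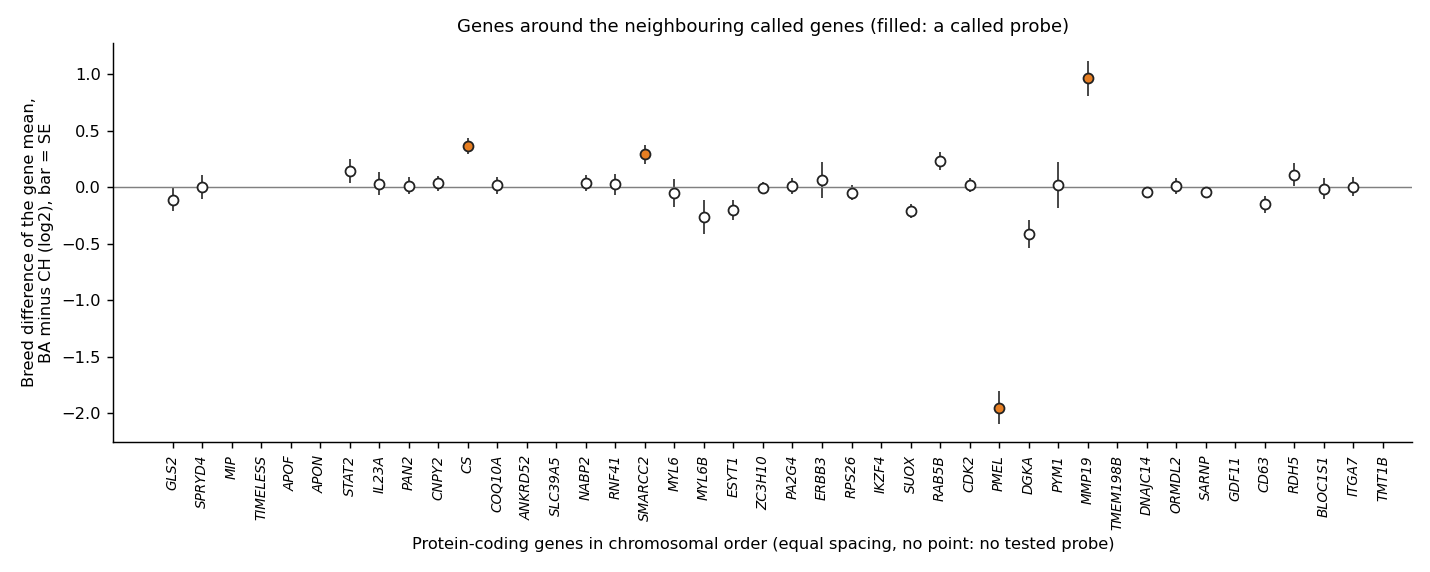
Shared breed difference of each gene mean (log2, BA minus CH, y axis) with its SE for the tested genes among 42 protein-coding genes in their order along the chromosome (x axis, place in the order), filled where a probe of the gene was called. *CS*, *SMARCC2* and *MMP19* stand above 0, *PMEL* lies at −1.95, and most genes between them lie near 0.

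The largest difference of any called probe was that of 1 of the 22 without a gene name. Probe A_73_P169412 differed by 3.19 ± 0.43 (SE, adjusted p = 0.0039, limma). Its level was −5.12, −3.68 and −1.96 in BA and −7.43, −6.74 and −4.32 in CH, and it was well above background on 9 of 10 BA and 1 of 11 CH arrays. Most of its CH values were thus not well above background, so the size of the difference is uncertain. It met the minimum of 10 arrays mainly through BA, the breed in which it was high. Its test is therefore not independent of that filter. Probe A_73_106483 was bright in both breeds, with 3.64, 3.90 and 4.22 in BA and 1.69, 2.06 and 3.22 in CH, and no foetuses overlapped. It differed by 1.51 ± 0.18 (SE, adjusted p = 0.000891, limma). Probe A_73_103968 also set the breeds fully apart, with −4.22, −3.78 and −3.51 in BA and −3.04, −2.80 and −2.11 in CH, a difference of −1.08 ± 0.11 (SE, adjusted p = 0.000325, limma).

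The shared difference hides changes between stages in part of the probes. No probe was called by the limma F test of stage differences after adjustment over all 30995, and 1761 had an unadjusted p under 0.05. Of the 52 called probes, 18 had such an unadjusted p, among them those of *APOC4*, *KRT24*, *PRSS23*, *GLRB*, *TMEM130*, *FST* and *PMEL*. Both *MSTN* probes, the 3 *LPAR6* probes and the called probe of *BET1* had unadjusted p-values between 0.24 and 1.00.

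Functions were examined on gene lists. Among them, immune genes were higher in BA as far as single genes go, and none of their genes passed the adjusted test. Of 27 tested genes of the type I interferon response, which cells switch on against viruses, 27 were higher in BA, with a median difference of 0.67 beside −0.00 over all genes, of which 49.4% were higher. At an unadjusted p of 0.05, 12 of the 27 were higher, where 6.3% of all genes were. In 12 of the 13 with several tested probes, every probe was higher.

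*IFI27*, an interferon-induced mitochondrial protein, had a level of −1.41, −0.01 and 5.20 in BA and −2.63, −1.53 and 0.54 in CH, and differed by 2.14 ± 0.74 (SE, adjusted p = 0.25, limma). *OAS1Y*, an enzyme that senses viral RNA, had −1.54, 0.57 and 5.86 in BA and −2.76, −0.82 and 1.14 in CH, and differed by 1.98 ± 0.72 (SE, adjusted p = 0.281, limma). The highest BA foetus stood far above the BA median in both genes.

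Single foetuses carried the highest interferon values. At 110, 180 and 210 dpc the mean level of the 27 genes was higher in every BA foetus than in every CH foetus. At 260 dpc the breeds overlapped. The mean level of the 27 genes was 1.63 in BA replicate 3 at 110 dpc and −0.41 in BA replicate 3 at 210 dpc, −2.41 to −1.16 in the other 8 BA foetuses, and −2.66 to −1.73 in CH. The median difference over the list was 1.61 at 110, 0.63 at 180, 0.49 at 210 and 0.18 at 260 dpc. Without the former foetus the median was 0.42, 25 genes were higher and 18 had an unadjusted p under 0.05 and were higher, beside 5.72% of all genes. Without the latter the median was 0.60 and 7 had one, and without BA replicate 1 at 110 dpc 21 had one. Infection or stress of these foetuses was not tested.

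Genes of antigen presentation gave the same sign. Of 16 tested genes of MHC class I, which shows fragments of the cell's own proteins on its surface, and of antigen processing, 13 were higher with a median of 0.37, and 8 passed an unadjusted p of 0.05, all higher, where 6.3% of all genes were higher. The median was 0.21 without BA replicate 3 at 110 dpc. *JSP.1*, a class I heavy chain, differed by 3.66 ± 0.91 (SE, adjusted p = 0.109, limma), with a level of −2.83, 1.39 and 3.01 in BA and −6.69, −1.87 and 1.63 in CH. Foetuses of either breed spanned a wide and overlapping range. *PSMB9*, a subunit of the immunoproteasome, differed by 1.27 ± 0.47. Class I genes are near-identical copies of each other and differ between animals, so probes can read several of them or miss an allele. All 5 tested genes of MHC class II, which presents proteins taken up by immune cells, were higher with a median of 0.46, among them *BOLA-DRA* (0.66) and *CD74* (0.47).

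Marker genes of leukocytes moved with these lists. Of 23 tested, 21 were higher with a median of 0.27. At an unadjusted p of 0.05, 6 were higher and none lower, where 6.3% of all genes were higher. Among the 6 were *CD3E* (1.16) and *CD8A* (0.83) of T cells. The mean level of the 23 genes was −2.33 to −1.10 in BA and −2.33 to −1.70 in CH. Most foetuses of the breeds thus overlapped. Without BA replicate 1 at 180 dpc none of the 23 had an unadjusted p under 0.05 in limma, the median was 0.16 and 20 were higher. The part of leukocytes in the interferon and MHC values was not tested.

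**Figure D4:**
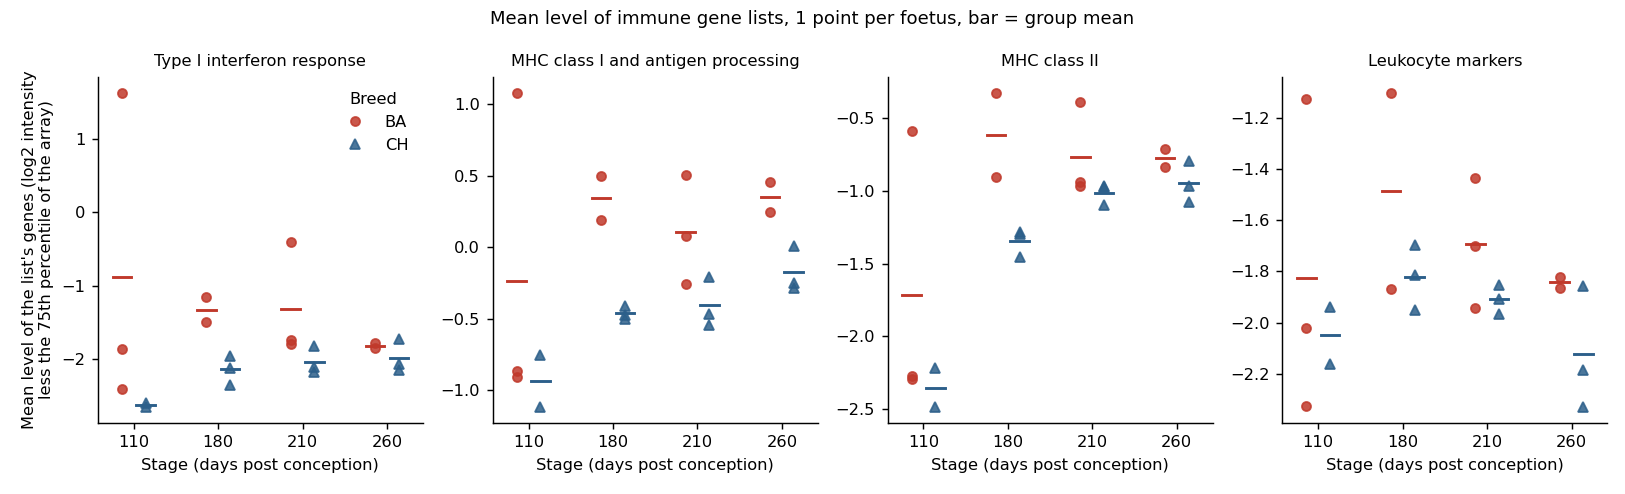
Mean level per foetus (log2 intensity less the array's 75th percentile, y axis) over the tested genes of the type I interferon, MHC class I, MHC class II and leukocyte lists, with 1 point per foetus, by stage in dpc (x axis) and breed. BA replicate 3 at 110 dpc stands at 1.63 on the interferon list, above all other foetuses, and on each list BA and CH points overlap.

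Among the contractile and energy genes, *CS* was the only one that was called. Of 13 tested slow fibre genes, 11 were lower with a median of −0.17, and 4 passed an unadjusted p of 0.05, all lower, where 5.53% of all genes were lower. *TNNC1*, the calcium-binding troponin of slow fibres, differed by −0.38 ± 0.14 (SE, adjusted p = 0.28, limma) and *PLN*, which restrains the calcium pump of slow fibres, by −0.43 ± 0.19 (SE, adjusted p = 0.371, limma). With 1 array left out in turn, 2 to 7 were lower at that p. The study chose *TNNC1* and other members of this list on these arrays, so their direction is not independent evidence. Of 15 fast fibre genes, 11 were lower with a median of −0.05, and none had an unadjusted p under 0.05 in limma.

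Of 76 genes of oxidative phosphorylation, 67 were lower with a median of −0.07 and 5 passed an unadjusted p of 0.05, among them *SDHB* (−0.26), a subunit of succinate dehydrogenase. All 5 were lower, and 5.53% of all genes were lower at that p. With 1 array left out in turn, 2 to 22 were lower at that p. Of 77 cytosolic ribosomal protein genes, 70 were lower with a median of −0.08, 5 at an unadjusted p of 0.05 and 4 to 28 with 1 array left out. Both counts of 5 were near the share over all genes. These medians were smaller than the SD of 0.22 over all probes, which is the spread of single probes and not the error of a median. In the citrate cycle 19 of 24 genes were lower, and *CS* was higher on its mean, against the sign of its list. Glycolysis and glycogen genes were 15 higher and 15 lower with a median of 0.00.

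None of the myogenic or neuromuscular junction genes was called. Of 16 tested genes of myogenic factors and satellite cells, 9 were higher with a median of 0.08. At an unadjusted p of 0.05, 3 were higher and none lower, where 6.3% of all genes were higher. *VCAM1*, an adhesion molecule of muscle precursors and of activated endothelium, differed by 0.50 ± 0.11 (SE, adjusted p = 0.0689, limma). Of 13 genes of the neuromuscular junction, 11 were higher with a median of 0.07. *CHRNG*, the foetal subunit of the muscle acetylcholine receptor, differed by 0.32.

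Connective tissue and fat genes were examined on 4 lists. Of 38 genes of matrix proteoglycans, proteases and matricellular proteins, 33 were lower with a median of −0.16, and 2 passed an unadjusted p of 0.05, both lower, near the 5.53% of all genes that were lower at that p. Its median was −0.02, −0.32, −0.21 and 0.07 at the 4 stages. Collagens were lower in 12 of 16 with a median of −0.13, and tendon and fibroblast markers in 11 of 14 with a median of −0.21. At the 4 stages the collagen median was 0.10, −0.32, −0.24 and 0.03, and that of the tendon and fibroblast markers 0.15, −0.67, −0.30 and 0.10. With 1 array left out in turn the medians lay between −0.20 and −0.08 for the matrix list, −0.17 and −0.06 for collagens and −0.37 and −0.06 for the tendon and fibroblast markers, which were lowest without BA replicate 1 at 110 dpc. Of 16 adipocyte genes, 12 were lower with a median of −0.25. At an unadjusted p of 0.05, 6 were lower and none higher, where 5.53% of all genes were lower. *GPAM*, which starts the synthesis of triglycerides, differed by −0.43 ± 0.10 (SE, adjusted p = 0.0673, limma). The adipocyte median moved between −0.30 and 0.03 with 1 array left out in turn.

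In the cell cycle list 22 of 38 genes were lower with a median of −0.03, and *MCM3* was called. At an unadjusted p of 0.05, 7 were lower and none higher, where 5.53% of all genes were lower. *CCNE2*, a cyclin of the entry into DNA synthesis, differed by −0.48 ± 0.12 (SE, adjusted p = 0.0969, limma). Amino acid response and supply genes were lower in 20 of 23 with a median of −0.09, and the medians at the stages were 0.02, 0.01, −0.01 and −0.48. CH replicates 1 and 2 at 260 dpc had a mean level of 0.68 each on this list, and all other foetuses −0.39 to −0.02. *PSAT1* of serine synthesis differed by −0.55 in this list, mostly at 260 dpc with −1.33. In the IGF axis 8 genes were higher and 9 lower with a median of −0.01.

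**Figure D5:**
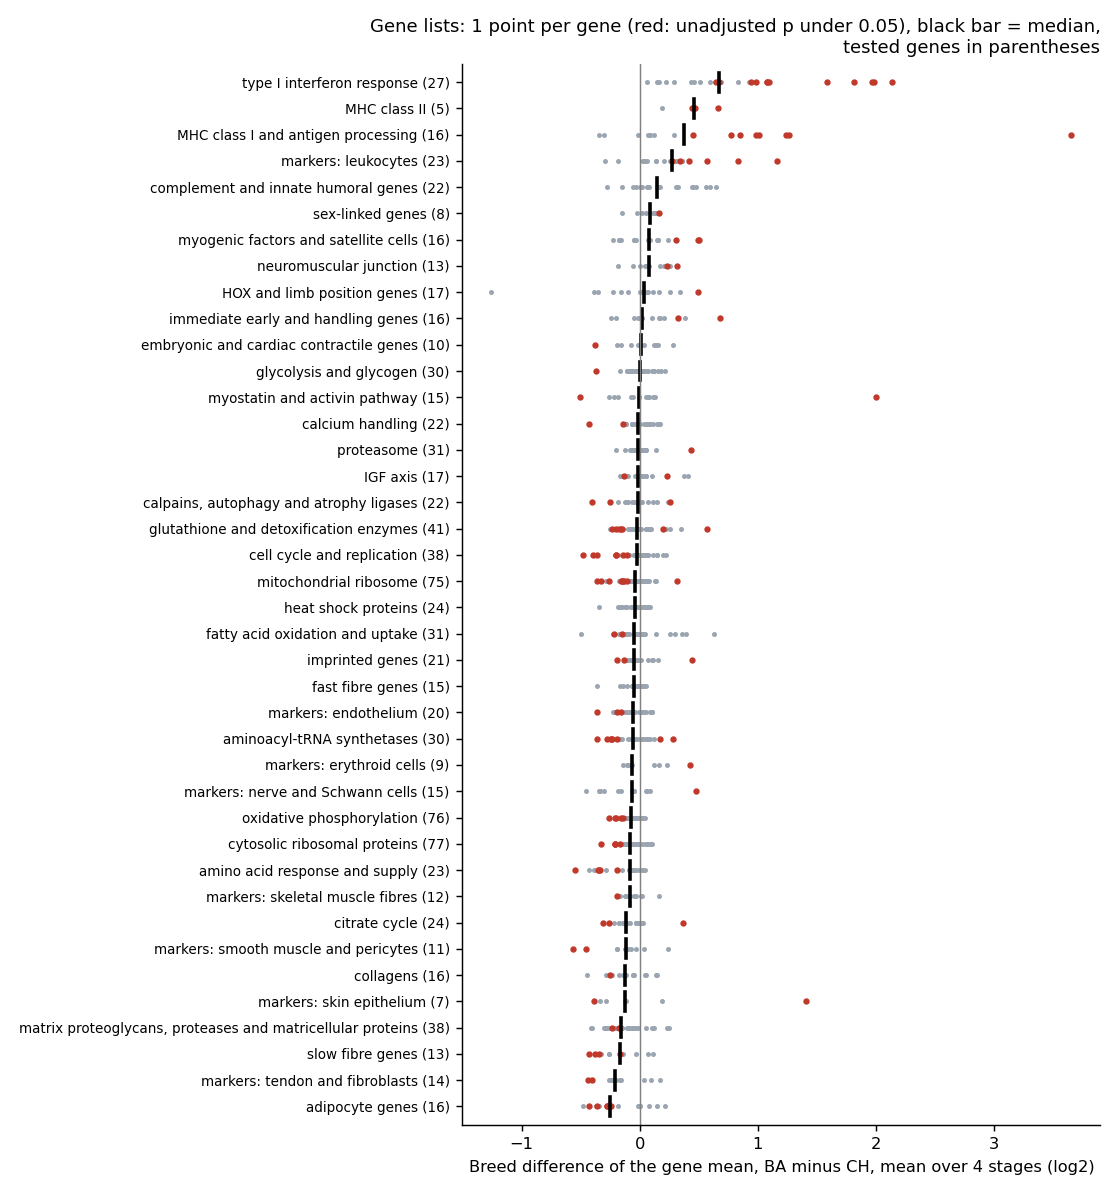
Shared breed difference of each tested gene mean (log2, BA minus CH, x axis) in 40 gene lists (rows), 1 point per gene, red where the unadjusted p was under 0.05, with a black bar at the list's median. The interferon, MHC and leukocyte lists have the highest medians, between 0.27 and 0.67, and the adipocyte list has the lowest, −0.25.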

How the data were processed

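Cy3-labelled RNA of 1 foetus was hybridized to each of 21 single-colour arrays. Spot intensity was extracted by the authors in Feature Extraction 10.7, detrended and left unscaled between arrays. They also deposited log2 values, of which 649571 of 649670 (99.98%) lay within 0.01 of the log2 of these intensities and which served as an alternative. Here control spots and 258 spot values flagged as outliers were left out, spots of a probe were averaged, and the log2 intensity was reduced by the array's 75th percentile. No probe value was saturated. Probes were tested if well above background on at least 10 of 21 arrays. Genes were named by matching the accessions in the files to the annotation of assembly ARS-UCD2.0, and no coordinates are given because the array was designed on another build.

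One mean was fitted for each of the 8 groups of breed and stage with limma 3.58.1 in R 4.3.3 (with jsonlite 2.0.0 and version 1.17.8 of data.table), with 13 residual and 2.70 prior degrees of freedom. The number of arrays limits the precision. The Benjamini-Hochberg adjustment ran over all tested probes, over genes with several tested probes for gene means and for diffSplice, and over all 10223 genes for single genes of the lists. Probes and genes were called at an adjusted p under 0.05. Permutations exchanged breeds within stages. Fits were tested on simulated data. Figures were drawn with matplotlib 3.10.9 in Python 3.11.15.

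The genes named follow a rule: *MSTN*, genes with several called probes, genes called by diffSplice, the 5 largest called differences in each direction with 1 sign at all stages, and the called members of each list or otherwise its 2 largest differences. Genes called on their mean, genes around *CS* and *PMEL* and some others were named after their values had been seen, and 1 gene called on its mean is not reported here. Members and lists were chosen with earlier results of these data known. Replicate numbers did not pair the foetuses. Alternatives were normexp (offset 50), quantile and median scaling, the deposited log2 values, other filters, sex, females alone, slide, scan day, sire and replicate number as blocks, other variance models, and each array left out. Chosen after seeing the data were the probe against its gene's other probes, *MSTN* within slides and days, all named genes, and list medians without each array, after normexp and after quantile normalization.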

Additional observations from a re-analysis of the deposited data

How the results depend on the processing

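The shared difference was recomputed under each alternative. Called probes, 52, became 19 in the authors' value table, 32 without a filter, 33 in females alone, 16 with slide as a block, 29 with scan day as a block, 91 with sire as a random block, 32 with the replicate block, 89 with a trended and robust variance and 103 with array weights. Genes with several called probes, 2, became 5 with normexp, 1 without a filter, 4 with the filter on group means, 1 with the slide block, 1 with the replicate block, 4 with the trended and robust variance and 5 with array weights, and 0 where probes of the same accession counted once, because all probes of such a gene share 1 accession. Genes called on their mean, 17, became 1 in the authors' table, 3 with the slide block, 5 with the scan day block, 30 with sire, 37 with array weights and 36 over all named genes. Genes called by diffSplice, 3, became 0 in the authors' table. Probes called for a difference between stages, 0, became 1 with normexp, 2 with quantile normalization, 1 without a filter, 2 in females alone and 1 with scan day. The causes of these moves were not tested.

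With 1 array left out in turn, where a lone array of a group was assumed to vary like the others, called probes were 29 (without BA replicate 2 at 180 dpc, and likewise without CH replicate 1 at 110 dpc) to 127 (without BA replicate 1 at 110 dpc), genes with several called probes 1 to 7, genes called on their mean 3 to 59, genes called by diffSplice 2 to 10 and probes that differed between stages 0 to 8. The *MSTN* difference was called throughout and lay between 1.87 and 2.15. Over the other alternatives it was 1.76 (normexp) to 2.45 (females alone), and 1.98 with the replicate block. Same-numbered arrays shared no deviation (66 pairs, median correlation −0.00). Over the named results, 668 probe values kept and 292 lost the threshold under an alternative, 436 gene means kept and 166 lost it, and none changed sign. *MSTN*, *PMEL* and *TMEM130* kept theirs under every alternative in which they were tested. DiffSplice was not run with sire as a block. The number of arrays and signals near background limited the test, and 4 sires, 1 probe design and 1 slide without BA arrays stand behind all values.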
